A study of Gallus gallus with 18 samples.

Results

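The genes described here carry out DNA replication and mitosis or set the pace of the cell cycle. They were taken as the rows of the deposited count table whose gene symbol was one of 48 names. Of these, 44 were found among the 30108 genes of the table, and all 44 passed the filter on low counts. MCM7, CCNB2, CDK4 and MKI67 were not found under those symbols and were not analysed here. By role, the 44 genes comprised 18 replication genes, 10 cyclins and cyclin-dependent kinases, 5 genes of the CDKN1 inhibitors and the RB-E2F switch, and 11 mitosis genes.

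The tissue was the trigeminal ganglion, the sensory ganglion of the face, from wild-type chick embryos. Poly(A)-enriched RNA was sequenced at 3 successive times of the Hamburger-Hamilton series, which orders embryos by external form, namely HH13-14, then HH15-16, then HH17-18. Each stage had 3 pools of ganglia, listed below in the order of their replicate numbers, and each pool was sequenced as 2 technical replicates that were summed here. How many embryos made up a pool is not given in the labels. No treatment or genetic change was made, so the comparisons ask how the levels of these genes differ as the ganglion forms.

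A dividing cell first licenses its replication origins. The origin recognition complex, CDC6 and CDT1 load the MCM helicase, and cyclin-dependent kinases then start DNA synthesis and, later, mitosis. The D-type and E-type cyclins drive entry into S phase by inactivating the RB protein and freeing E2F factors. The CDKN1 proteins hold the kinases back and are best known for acting as cells leave the cycle. In the forming trigeminal ganglion, placode-derived cells become neurons early, while neural crest cells go on dividing and give rise to neurons and glia later.

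The libraries held 26505315 to 34424153 counts and the pools 53458986 to 68083147, and the 44 genes had between 2075 counts (CDKN1A) and 606167 counts (TOP2A) over the 9 pools. Levels are given as CPM, counts scaled to a common TMM-normalized library size, and are compared between pools for a gene but not between genes, since they are not per length. One pool tended to lie low: HH17-18 replicate 2 had the lowest level of all 9 pools for 16 of the 44 genes, HH15-16 replicate 2 for 10 and HH15-16 replicate 1 for 9. HH17-18 replicate 1 was the highest pool for 12 genes, HH13-14 replicate 1 for 10 and HH15-16 replicate 1 for 9. Markers of the labelled tissue were present at every stage. The 15 neuron markers found of 16 summed to 1222 to 1260 CPM at HH13-14, 975 to 1370 CPM at HH15-16 and 1283 to 2063 CPM at HH17-18. Most of that sum was TUBB3, with means of 885, 771 and 977 CPM, so it does not stand for each neuron marker. From HH13-14 to HH17-18 the log2 fold change of TUBB3 was 0.14 (edgeR adjusted p = 0.608). The 7 neural crest markers found of 8 summed to 621 to 755, 327 to 699 and 353 to 591 CPM, and all 7 trigeminal placode markers to 330 to 401, 251 to 386 and 319 to 406 CPM. In a bulk sample, fewer dividing cells and less RNA per dividing cell cannot be told apart.

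The levels of replication and mitosis genes differed little between the stages. From HH13-14 to HH17-18, none of the 44 genes passed an adjusted p-value of 0.05 in edgeR's quasi-likelihood test, beside 4.51% of all 17724 genes tested. That share would be only a few of 44 genes, so the count of 0 does not set them apart. Without HH13-14 replicate 1 the share of all genes was 0.539%. With DESeq2, 1 of the 44 passed, the inhibitor CDKN1C, against 9.62% of all genes. At an unadjusted p under 0.05, edgeR gave 7 of the 44, with 21.6% of all genes. Those higher at HH17-18 were CDK2, CDKN1C and CENPF, and those lower were CDT1, GMNN, CCNE1 and CDK1. The count of 7 ranged from 3, without HH13-14 replicate 2, to 12, without HH15-16 replicate 1 or HH17-18 replicate 1, and it was 13 in a fit of these 2 stages alone. The test of any effect of stage called 0 of the 44 with edgeR, where 1.3% of all genes passed. It gave 4 at an unadjusted p under 0.05 (CCNE1, CDK1, CDK2 and CDKN1C; 16.7% of all genes), and DESeq2 called CDKN1C alone, with 7.6% of all genes past its threshold. That count of 4 ranged from 1, without HH17-18 replicate 2, to 11, without HH15-16 replicate 3.

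The size of change was bounded gene by gene, more closely for some genes than for others. For 35 of the 44 genes the 95% interval of the log2 fold change from HH13-14 to HH17-18 lay within 0.5 in either direction, a 1.41-fold change. It reached further for CDC6, CDT1, RFC3, CCND1, CCND3, CCNE1, CCNE2, CDKN1A and CDKN1C. For 43 genes the interval lay within 1, a 2-fold change, and the exception was the rare transcript CDKN1A. The intervals hold for single genes and not jointly for all 44. The median log2 fold change of the 44 genes was -0.09, beside 0.02 over all genes tested. The fitted change was below 0 for 32 of the 44 and for 47.2% of all genes. That count fell to 26 of 44 without HH17-18 replicate 2, and it was 24 of 44, beside 38.5% of all genes, when library totals were used with no further scaling. Over the 9 pools the median coefficient of variation was 9.11% for the 43 genes with a mean of at least 20 CPM, near the 9.53% of all 8010 such genes. It was 6.46% for the mitosis genes, 9.67% for the replication genes and 11.4% for the cyclins and kinases. For the 5 inhibitor and RB-E2F genes, with CDKN1A included, it was 10.55%.

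**Figure D1:**
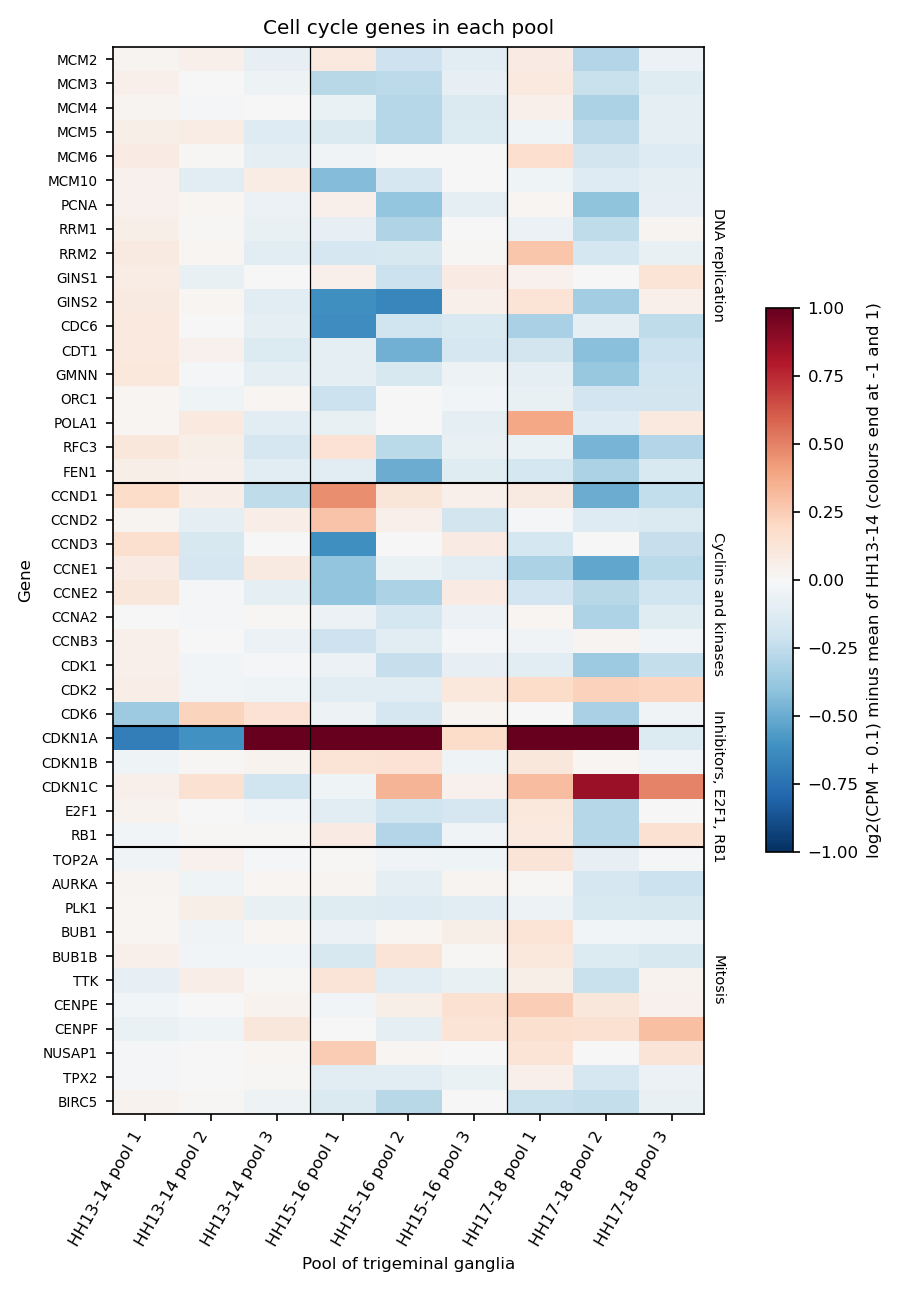
Level of each of the 44 genes (rows, grouped by role) in each of the 9 pools (columns), as the difference of log2(CPM + 0.1) from the mean of the 3 HH13-14 pools, with colours ending at -1 and 1. Most cells are pale, HH17-18 replicate 2 is mostly blue in the replication and cyclin rows, and the CDKN1A and CDKN1C rows hold the deepest reds.

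Among the 18 replication genes, none passed the threshold from HH13-14 to HH17-18. Their median log2 fold change was -0.10, and 15 of 18 were below 0. Without HH17-18 replicate 2 the median was -0.03 with 12 of 18 below 0, and without HH17-18 replicate 1 it was -0.17. With library totals and no further scaling, 13 of 18 were below 0. The fitted fold changes ran from 0.828 for CDT1 to 1.09 for POLA1.

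None of the licensing factors passed the threshold over this interval. CDT1, which loads the MCM helicase onto origins, stood at 144, 139 and 123 CPM in the HH13-14 pools, at 126, 97.0 and 121 CPM in the HH15-16 pools and at 119, 101 and 116 CPM in the HH17-18 pools. All HH13-14 pools lay above all HH17-18 pools, as for 15.4% of all genes tested, while the HH15-16 pools overlapped both. The log2 fold change over the whole interval was -0.27 (SE 0.11, edgeR adjusted p = 0.191), with a 95% interval of -0.52 to -0.02. Geminin (GMNN), the inhibitor of CDT1, had a mean of 67.3 ± 4.86 CPM at HH13-14 and 57.8 ± 5.77 CPM at HH17-18 (SD, n = 3), which gave -0.22 on the log2 scale (edgeR adjusted p = 0.205). ORC1, a subunit of the origin recognition complex, had 107 ± 2.72 CPM at HH13-14 and 96.0 ± 4.32 CPM at HH17-18, and its pools at these stages did not overlap (log2 fold change -0.15, edgeR adjusted p = 0.293). For CDC6, which works with CDT1, the means were 55.2 ± 3.79, 44.4 ± 7.60 and 47.3 ± 4.06 CPM over the 3 stages, so its lowest mean was at HH15-16.

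The levels of every MCM helicase gene overlapped between HH13-14 and HH17-18. MCM6 had means of 317 ± 19.7, 314 ± 4.09 and 309 ± 41.8 CPM at HH13-14, HH15-16 and HH17-18. MCM2 had 382 ± 19.4, 364 ± 40.5 and 360.5 ± 46.6 CPM, and at HH17-18 its replicate 2, at 311 CPM, was the lowest of all 9 pools. MCM3 and MCM5 had their lowest means at HH15-16, 256 ± 19.9 and 321 ± 18.9 CPM, against 295 ± 10.7 and 366 ± 28.3 CPM at HH13-14. MCM4 had 256 ± 4.57, 229 ± 17.4 and 237 ± 30.1 CPM, and MCM10, which helps to activate the loaded helicase, had 95.8 ± 6.60, 84.0 ± 12.6 and 89.99 ± 2.58 CPM. GINS1 and GINS2 encode subunits of the GINS complex, which joins the helicase at the active fork. GINS1 varied only between 36.8 and 46.9 CPM over all 9 pools, whereas GINS2 was at 37.5 and 36.4 CPM in HH15-16 replicates 1 and 2 and at 44.9 to 63.2 CPM in the other 7 pools.

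The synthesis machinery overlapped between stages for most members. POLA1, the catalytic subunit of the polymerase that lays down primers, stood at 176, 185 and 160.1 CPM at HH13-14, 165, 174 and 164 CPM at HH15-16 and 227, 159 and 186 CPM at HH17-18. The highest and the lowest of its 9 values were thus HH17-18 replicates 1 and 2. Its log2 fold change was 0.13 (SE 0.11, edgeR adjusted p = 0.558), and without HH17-18 replicate 1 it was -0.01. PCNA, the sliding clamp, had means of 547 ± 20.4, 499.6 ± 75.7 and 494 ± 72.3 CPM (log2 fold change -0.15, edgeR adjusted p = 0.537), with its lowest values, 418 and 414 CPM, in replicate 2 of HH15-16 and of HH17-18. RFC3, a subunit of the clamp loader, had a log2 fold change of -0.27 with a 95% interval of -0.56 to 0.02. FEN1, which trims Okazaki fragments, was at 196 to 219.7 CPM in the HH13-14 pools and at 169 to 190.1 CPM in the HH17-18 pools. These did not overlap, as for 15.4% of all genes tested, and the log2 fold change of FEN1 was -0.22 (edgeR adjusted p = 0.263). RRM1 and RRM2, the subunits of ribonucleotide reductase, had means of 429.9 ± 19.5 and 385 ± 26.3 CPM at HH13-14 and of 404 ± 39.9 and 390.2 ± 66.4 CPM at HH17-18.

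None of the 10 cyclins and kinases passed the threshold. Their median log2 fold change from HH13-14 to HH17-18 was -0.14, with 9 of 10 below 0, and it ranged from -0.20 to -0.08 when each pool was left out in turn. The single gene above 0 was CDK2. The fitted fold changes lay between 0.775 for CCNE1 and 1.16 for CDK2.

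None of the D-type cyclins, which respond to growth signals, passed the threshold, and the pools of each overlapped between all stages. CCND1 stood at 139, 128 and 102 CPM in the HH13-14 pools, at 169, 133 and 127 CPM in the HH15-16 pools and at 130.1, 86.7 and 103 CPM in the HH17-18 pools. Its mean was therefore highest at the middle stage, with overlap between all stages. The log2 fold change was -0.21 (SE 0.17, edgeR adjusted p = 0.504) over the interval and -0.42 (SE 0.17, edgeR adjusted p = 0.46) from HH15-16 to HH17-18. CCND2 was at 77.9, 71.5 and 80.1 CPM, then 92.9, 79.0 and 67.2 CPM, then 76.0, 70.0 and 69.2 CPM, again with overlap (log2 fold change over the interval -0.09, edgeR adjusted p = 0.682). CCND3 was at 39.7, 31.6 and 35.5 CPM, then 23.1, 35.3 and 37.6 CPM, then 31.3, 35.6 and 30.3 CPM (log2 fold change -0.14, edgeR adjusted p = 0.694). HH15-16 replicate 1 had the highest CCND1 and CCND2 values and the lowest CCND3 value of the 9 pools.

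The E-type cyclins and CDK1 were lower at HH17-18 in every pool than in any HH13-14 pool, while their tests did not pass. Such a difference without overlap was as common among all genes tested (15.4%) as among the 44 (15.9%). CCNE1, the partner of CDK2 at the start of S phase, lies on chromosome 11, bases 8093097 to 8106100 of the GRCg7b build in RefSeq. It stood at 42.2, 35.4 and 42.5 CPM at HH13-14, at 30.3, 38.2 and 36.8 CPM at HH15-16 and at 32.1, 27.9 and 33.2 CPM at HH17-18. Its log2 fold change was -0.37 (SE 0.12, edgeR adjusted p = 0.116), with a 95% interval of -0.63 to -0.10. CCNE2, the other E-type cyclin, had means of 42.0 ± 3.12 CPM at HH13-14 and 35.9 ± 1.12 CPM at HH17-18 (log2 fold change -0.23, edgeR adjusted p = 0.331).

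CDK1, the kinase that starts mitosis (chromosome 6, bases 9395887 to 9403898), was at 386, 366 and 367 CPM at HH13-14, 357, 318 and 353 CPM at HH15-16 and 347, 290.5 and 317 CPM at HH17-18. Every HH13-14 pool exceeded every pool of both later stages. Taken stage by stage, this held for 8.6% of all genes at HH15-16 and 15.4% at HH17-18. On the log2 scale the difference between HH17-18 and HH13-14 was -0.23 (SE 0.08, edgeR adjusted p = 0.121). CDK2, which acts with cyclins E and A (chromosome 34, bases 1344337 to 1346999), was at 66.0, 61.9 and 61.0 CPM, then 58.6, 58.2 and 67.8 CPM, then 71.4, 73.8 and 73.1 CPM. All HH17-18 pools lay above all 6 earlier pools. Lying above the HH13-14 pools held for 16% of all genes, and above the HH15-16 pools for 5.94%. The share meeting both was not counted. The fitted log2 differences of CDK2 were 0.21 over the interval (SE 0.08, edgeR adjusted p = 0.17) and 0.24 from HH15-16 (SE 0.08, edgeR adjusted p = 0.371). CCNA2, the cyclin of S and G2 phases, had means of 306 ± 2.37, 287 ± 13.3 and 279.9 ± 31.7 CPM. CCNB3, a B-type cyclin, spanned 127 to 153 CPM over all pools, and CDK6, a partner of the D-type cyclins, spanned 24.4 to 36.6 CPM, with both extremes at HH13-14.

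Among the inhibitors, CDKN1C was the member with the smallest adjusted p-value of all 44. CDKN1C (p57) restrains cyclin-dependent kinases as progenitors leave the cycle. Its gene, ENSGALG00010024146 in the table, lies on chromosome 5, bases 12814914 to 12816593. It stood at 32.2, 34.6 and 27.1 CPM at HH13-14, at 30.2, 39.5 and 32.2 CPM at HH15-16 and at 38.6, 56.9 and 43.9 CPM at HH17-18. All HH17-18 pools lay above all HH13-14 pools, as for 16% of all genes tested, and 1 HH15-16 pool exceeded the lowest HH17-18 pool. The log2 fold change from HH13-14 to HH17-18 was 0.57 (SE 0.16, 95% interval 0.22 to 0.92), a 1.49-fold difference. Its edgeR adjusted p was 0.0735, which misses the threshold, and its DESeq2 adjusted p was 0.0205, which passes it. Over 18 alternative settings the log2 fold change ran from 0.40 to 0.69 and the adjusted p from 0.0205 to 0.227, with 2 settings past the threshold. From HH13-14 to HH15-16 the log2 fold change was 0.12, and from HH15-16 to HH17-18 it was 0.45 (edgeR adjusted p = 0.399).

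CDKN1A (p21), which is induced by the p53 pathway among other signals, had the fewest counts of the 44 genes. It was at 0.700, 0.748 and 3.06 CPM at HH13-14, at 16.9, 3.90 and 1.37 CPM at HH15-16 and at 4.03, 2.58 and 1.07 CPM at HH17-18. The value of HH15-16 replicate 1 stood far above the rest, and it was seen in both technical replicates of that pool, with 520 counts on lane 7 and 474 on lane 8. The log2 fold change from HH13-14 to HH15-16 was 2.30 (SE 0.89, edgeR adjusted p = 0.456), and 0.81 without that pool. From HH13-14 to HH17-18 it was 0.77, with a 95% interval of -1.16 to 2.70. That interval spans a fall and a larger rise, so neither the direction nor the size of a CDKN1A change was resolved here.

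CDKN1B (p27), the third inhibitor of this family, was at 54.5, 56.3 and 57.3 CPM at HH13-14, at 61.5, 61.8 and 54.5 CPM at HH15-16 and at 60.7, 56.7 and 54.9 CPM at HH17-18. All stages overlapped, and over the interval the log2 fold change was 0.04 (SE 0.08, 95% interval -0.14 to 0.22), and without HH17-18 replicate 1 it was -0.01.

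E2F1, a transcription factor that activates S phase genes, stood at 72.1, 70.0 and 69.0 CPM, then 65.5, 61.3 and 62.7 CPM, then 75.7, 57.9 and 70.0 CPM. All HH15-16 pools lay below all HH13-14 pools, as for 8.6% of all genes tested, and the HH17-18 pools spanned both. From HH13-14 to HH15-16 the log2 fold change of E2F1 was -0.16 (edgeR adjusted p = 0.613). Its log2 fold change over the interval was -0.05 (edgeR adjusted p = 0.805), and it was 0.01 with library totals and no further scaling. RB1, which binds and silences E2F factors, had means of 67.3 ± 1.04, 64.0 ± 8.32 and 67.3 ± 10.7 CPM, with its lowest values, 54.9 and 55.1 CPM, in replicate 2 of HH15-16 and of HH17-18. The 5 genes of this group had a median log2 fold change of 0.04, with 2 of 5 below 0.

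**Figure D2:**
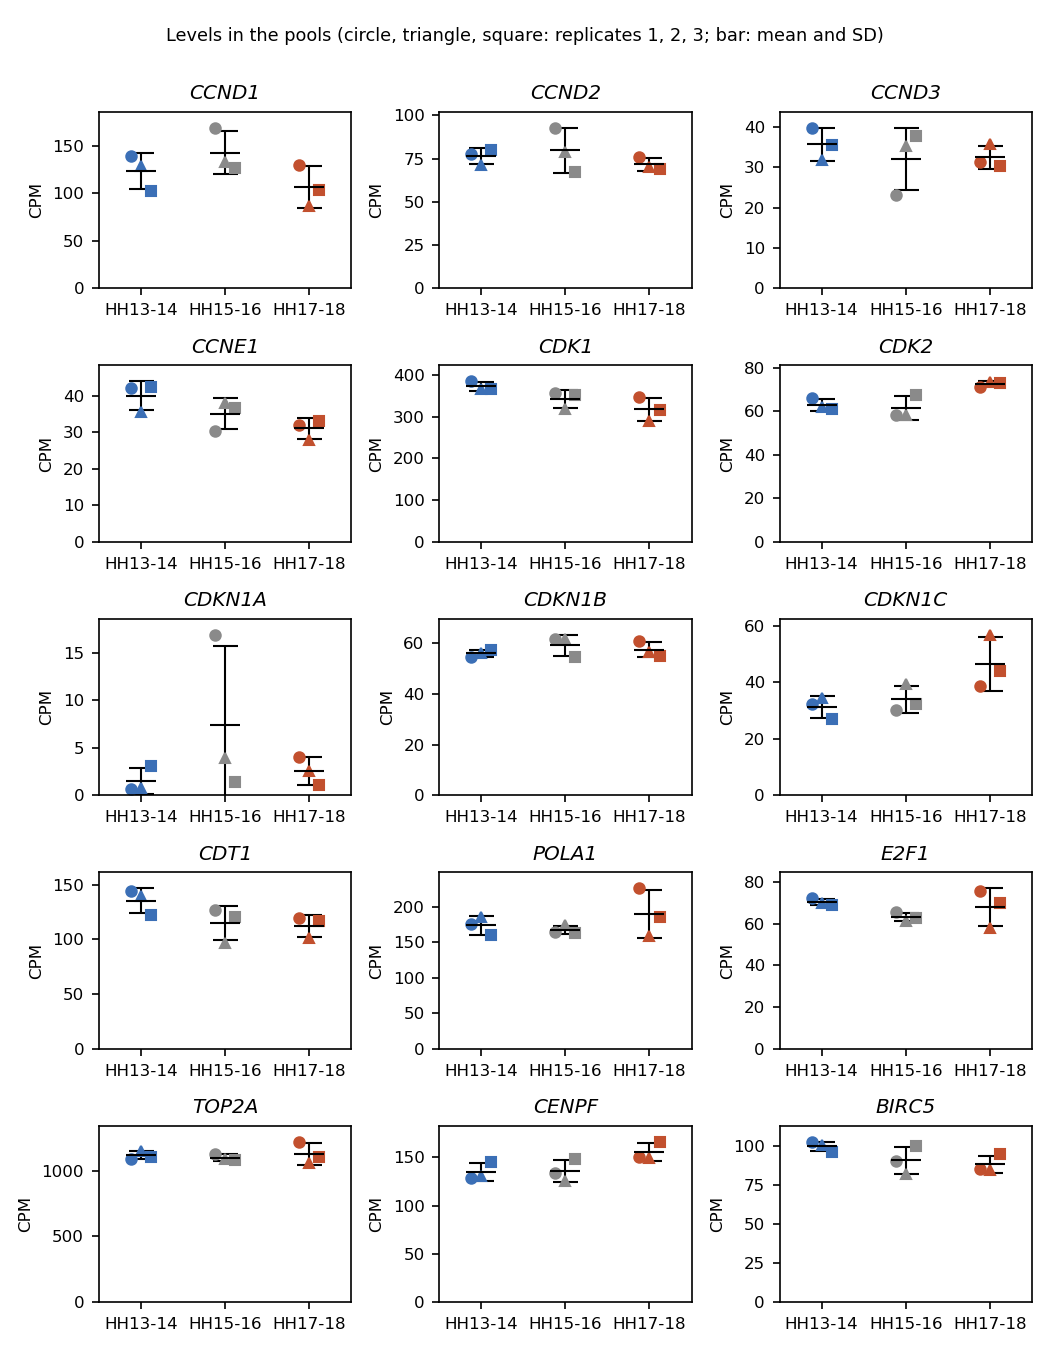
CPM of 15 genes in each pool, by stage (symbols show replicates 1 to 3, the wide dash the mean and the bars the SD of 3 pools, with all axes starting at 0 and the CDKN1A bar ending there). CDK2 and CDKN1C are highest at HH17-18, CCNE1 and CDK1 are lowest there, and CDKN1A has 1 high pool at HH15-16, at 16.9 CPM.

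Set side by side, the cyclins and the CDKN1 inhibitors differed by small amounts between stages. The summed level of the cyclins was 771 ± 29.4 CPM at HH13-14, 749.5 ± 20.8 CPM at HH15-16 and 704 ± 54.3 CPM at HH17-18 (SD, n = 3). The largest part of that sum was CCNA2, with means of 306, 287 and 279.9 CPM. The summed level of CDKN1A, CDKN1B and CDKN1C was 88.8 ± 2.48, 101 ± 11.0 and 106 ± 8.58 CPM at these stages. Most of it was CDKN1B, with means of 56.0, 59.3 and 57.4 CPM, and HH15-16 replicate 1 held 16.9 CPM of CDKN1A. These sums therefore do not stand for each gene of a family. The lowest cyclin sum, 653 CPM, and the highest CDKN1 sum, 116 CPM, both belonged to HH17-18 replicate 2. The ratio of CCNE1 to CDKN1C within a pool was 1.31, 1.02 and 1.57 at HH13-14, 1.00, 0.967 and 1.14 at HH15-16 and 0.832, 0.490 and 0.755 at HH17-18. All HH17-18 ratios lay below those of the 6 earlier pools. This pair combines the lowest fold change of the cyclins with an inhibitor chosen for its values, so the ratio is a description and was given no test.

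The mitosis genes had the lowest median coefficient of variation of the roles, 6.46% over the 9 pools. The roles were not matched for level in this comparison. None of the 11 passed the threshold from HH13-14 to HH17-18, and their median log2 fold change was -0.04, with 6 of 11 below 0. With library totals and no further scaling, 3 of 11 were below 0, and without HH17-18 replicate 2 the median was 0.04. TOP2A, the topoisomerase that untangles sister chromatids, stood at 1091, 1150.1 and 1104 CPM at HH13-14, at 1125, 1088 and 1081 CPM at HH15-16 and at 1219, 1054 and 1102 CPM at HH17-18. Its log2 fold change was 0.01 with a 95% interval of -0.13 to 0.15 (edgeR adjusted p = 0.928), and it was -0.05 without HH17-18 replicate 1. The most abundant transcript of the group by count thus differed by less than the spread between its pools.

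The kinetochore proteins CENPF and CENPE were the mitosis genes with the largest fitted changes upward. CENPF (chromosome 3, bases 20706976 to 20741620) was at 128, 130.4 and 145 CPM at HH13-14, at 134, 126 and 148 CPM at HH15-16 and at 151, 149 and 166 CPM at HH17-18. All HH17-18 pools lay above all earlier ones. Of all genes, 16% lay above the HH13-14 pools in this way, and 5.94% above the HH15-16 pools. The fitted log2 difference of CENPF over the interval was 0.21 (SE 0.08, edgeR adjusted p = 0.192). CENPE, a kinesin that moves chromosomes to the spindle equator, had means of 165 ± 3.65 CPM at HH13-14 and 181 ± 13.1 CPM at HH17-18, without overlap (log2 fold change 0.14, edgeR adjusted p = 0.323).

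BIRC5 (survivin), a subunit of the chromosomal passenger complex, was the lowest of the group by fold change. It was at 102, 100.5 and 96.2 CPM at HH13-14, at 90.2, 82.2 and 99.6 CPM at HH15-16 and at 85.2, 84.3 and 94.5 CPM at HH17-18. The first and last stages thus did not overlap, as for 15.4% of all genes tested. The log2 fold change of BIRC5 was -0.18 (SE 0.09, edgeR adjusted p = 0.263). PLK1, a kinase of mitotic entry and spindle assembly, had means of 436 ± 20.9, 401 ± 3.84 and 401 ± 17.9 CPM (log2 fold change -0.12, edgeR adjusted p = 0.275).

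The spindle checkpoint kinases held their levels within narrow bounds. BUB1 had means of 192 ± 3.88, 193 ± 7.76 and 195 ± 13.5 CPM over the stages, BUB1B 219.5 ± 6.71, 219.3 ± 21.5 and 211 ± 22.3 CPM, and TTK 143 ± 7.40, 141 ± 12.9 and 139 ± 14.4 CPM. For the spindle kinase AURKA they were 138 ± 3.77, 137 ± 6.55 and 127 ± 10.5 CPM. TPX2, which activates AURKA on the spindle, had 562 ± 4.99, 528 ± 8.63 and 540.3 ± 40.9 CPM, and NUSAP1, which binds spindle microtubules, had 58.9 ± 0.859, 63.0 ± 6.32 and 62.7 ± 3.44 CPM. The pools of these 6 genes overlapped between HH13-14 and HH17-18.

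**Figure D3:**
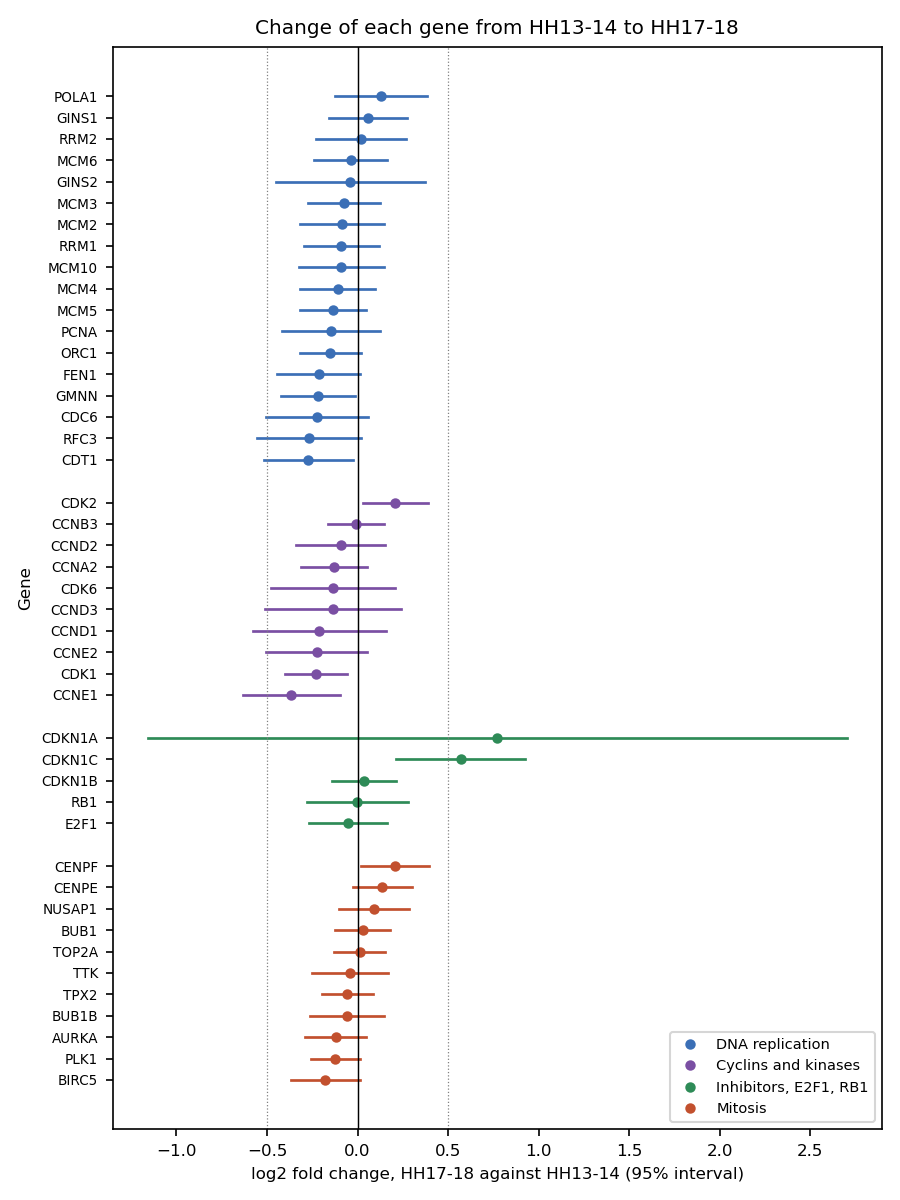
Fitted log2 fold change of each of the 44 genes from HH13-14 to HH17-18 with its 95% interval, coloured by role, with dotted lines at -0.5 and 0.5. The points lie between -0.37 (CCNE1) and 0.77 (CDKN1A), 35 intervals stay between the dotted lines, and the CDKN1A interval is by far the widest.

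Counts of genes whose HH13-14 and HH17-18 pools did not overlap were below the background of all genes tested in the upward direction and near it in the downward one. There were 4 genes higher in every HH17-18 pool (CDK2, CDKN1C, CENPE and CENPF; 9.09% of 44, beside 16% of all genes). There were 7 lower in every HH17-18 pool (CDT1, ORC1, FEN1, CCNE1, CCNE2, CDK1 and BIRC5; 15.9%, beside 15.4% of all genes). Both counts used the TMM scaling and were not recomputed with library totals.

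For the earlier step, HH13-14 to HH15-16, the replication genes all had fitted changes below 0, and none passed the threshold. Their median log2 fold change was -0.13 with 18 of 18 below 0, beside 45.4% of all genes, and with library totals and no further scaling 15 of 18 were below 0, beside 33.8% of all genes. The median was -0.09 without HH15-16 replicate 2 and -0.10 without HH13-14 replicate 1, each with 16 of 18 below 0. With each lane alone 17 of 18 were below 0. These genes were read in the same pools, so their directions are not independent. The mitosis genes had a median of -0.01 with 7 of 11 below 0, which became 3 of 11 with library totals. No gene of the 44 and 0% of all genes passed an adjusted p of 0.05 with edgeR, and DESeq2 called 0 of the 44 and 0.605% of all genes. At an unadjusted p under 0.05 there were 5 of the 44, with 10.1% of all genes. These were CDKN1A, which was higher, and MCM3, MCM5, CDC6 and FEN1, which were lower, with log2 fold changes of -0.21, -0.19, -0.31 and -0.23. The count of 5 became 0 without HH13-14 replicate 1 or without HH13-14 replicate 2, 2 without HH15-16 replicate 2 or HH17-18 replicate 3, 3 without HH15-16 replicate 1 and 9 without HH15-16 replicate 3. It was 1 with library totals and no further scaling, 2 with DESeq2, and 3 with each lane alone or with at least 10 counts in every pool. Pools did not overlap for 10 genes that were lower at HH15-16 (MCM3, MCM4, MCM5, CDC6, FEN1, CCNA2, CDK1, E2F1, PLK1 and TPX2), 22.7% of the 44 beside 8.6% of all genes. No gene was higher in every HH15-16 pool, beside 8.03% of all genes. These counts without overlap depend on the scaling. The TMM factor was lower in every HH13-14 pool than in any HH15-16 pool, which raises HH13-14 levels relative to those from library totals. The counts without overlap were not recomputed with library totals, so how many of the 10 genes would remain was not tested.

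For the later step, HH15-16 to HH17-18, the fitted changes were split about evenly. The median log2 fold change of the replication genes was 0.04 with 7 of 18 below 0, and 22 of the 44 genes were below 0, beside 50.4% of all genes. The sign of this median depended on single pools. It was -0.01 without HH15-16 replicate 2 (11 of 18 and 26 of 44 below 0), -0.02 without HH17-18 replicate 1 (10 of 18 and 28 of 44) and 0.10 without HH17-18 replicate 2 (3 of 18 and 14 of 44). No gene of the 44 passed with edgeR, against 0.079% of all genes, or with DESeq2, against 1.72%. At an unadjusted p under 0.05 there were 4 (CDK2, CDKN1C and CENPF higher and CCND1 lower), with 9.32% of all genes. The number was between 2, without HH15-16 replicate 1 or HH17-18 replicate 3, and 6, without HH15-16 replicate 3 or HH17-18 replicate 1. CDK2 and CENPF were higher in every HH17-18 pool, 4.55% of the 44 beside 5.94% of all genes, and no gene was lower in every pool, beside 5.55%. The later step minus the earlier step was tested directly. None of the 44 genes passed with edgeR or DESeq2 (0.00564% and 0.0344% of all genes), and 2 had an unadjusted p under 0.05 with edgeR, CCND1 and CDKN1A, with 4.36% of all genes. That number was 0 without HH15-16 replicate 1, 6 without HH17-18 replicate 2 and 10 without HH15-16 replicate 3. The steps share the HH15-16 pools, so a low HH15-16 pool moves them in opposite directions.

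The balance of replication and mitosis genes varied between pools, and its values overlapped between the stages. The summed level of the replication genes was 4184, 4084 and 3806 CPM at HH13-14, 3791, 3387 and 3837 CPM at HH15-16 and 4166, 3341 and 3799 CPM at HH17-18. The mitosis genes summed to 3237, 3307 and 3249 CPM, then 3182, 3143 and 3212 CPM, then 3453, 3049 and 3175 CPM. Replicate 2 of HH15-16 and of HH17-18 was the lowest pool of its stage in both sums. The ratio of the sums, which is comparable between pools but not a ratio of molecules, was 1.23 ± 0.0607, 1.15 ± 0.0665 and 1.17 ± 0.0612 over the stages (SD, n = 3). Single pools ran from 1.08 in HH15-16 replicate 2 to 1.29 in HH13-14 replicate 1. The ratio was given no test, so a difference between stages was neither shown nor excluded.

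**Figure D4:**
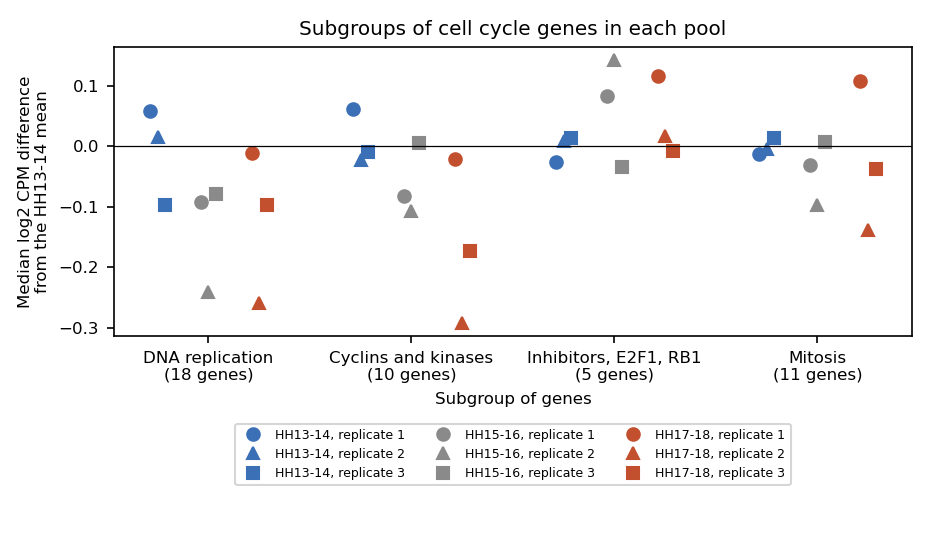
Median, over the genes of each role, of the log2 CPM difference from the HH13-14 mean, in each of the 9 pools (colour shows the stage and symbol the replicate). In the replication, cyclin and kinase, and mitosis groups, HH17-18 replicate 2 has the lowest HH17-18 median and replicate 1 the highest.

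A wider list of 130 other cell cycle genes, of which 118 were in the table and tested, was read in the same fit. From HH13-14 to HH17-18, 2 passed the edgeR threshold, MYC and CDC25A, and both fell, beside 4.51% of all genes called in either direction. At an unadjusted p under 0.05, 9 were higher and 16 lower, together 21.2% of the 118, which is near the 21.6% of all genes. The median log2 fold change was -0.06, beside 0.02 over all genes tested. Of the 118, 83 were below 0, beside 47.2% of all genes. These values of the wider list were not recomputed with library totals. That scaling took the count below 0 among the 44 genes from 32 to 24.

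MYC encodes a transcription factor that promotes growth and division. It stood at 62.7, 45.4 and 52.4 CPM at HH13-14, at 49.3, 56.5 and 46.0 CPM at HH15-16 and at 33.7, 29.3 and 22.4 CPM at HH17-18. All HH17-18 pools lay below the 6 earlier pools. Of all genes, 15.4% lay below the HH13-14 pools in this way, and 5.55% below the HH15-16 pools. MYC fell by 0.91 on the log2 scale from HH13-14 to HH17-18 (SE 0.16, edgeR adjusted p = 0.018). The adjusted p was 0.0863 without HH13-14 replicate 1, 0.0687 without HH13-14 replicate 3 and 0.0543 without HH17-18 replicate 3. CDC25A, a phosphatase that activates cyclin-dependent kinases, was at 75.9, 60.6 and 59.8 CPM, then 63.5, 56.7 and 63.5 CPM, then 48.8, 46.8 and 45.7 CPM. It too was lower in every HH17-18 pool than in any earlier one, and fell by 0.47 on the log2 scale (SE 0.10, edgeR adjusted p = 0.0334). Leaving out any 1 of the 6 HH13-14 and HH17-18 pools took its adjusted p to between 0.0558 and 0.119.

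Summed markers of some other cell types differed between the same stages, while those of others overlapped. The 6 erythroid markers tested of 12 summed to 652 to 896 CPM at HH13-14, 618 to 1384 CPM at HH15-16 and 1176 to 1818 CPM at HH17-18. All 8 macrophage markers summed to 10.4 to 16.0, 10.7 to 55.2 and 43.3 to 106 CPM, and all 8 head mesenchyme markers to 1340 to 1423, 933 to 1974 and 1532 to 2523 CPM. The 7 neural tube markers tested of 9 summed to 217 to 286, 134 to 423 and 66.0 to 236 CPM, and SOX3, an eighth in the table, was at 0 in every pool. The 4 glial markers tested of 5 summed to 168 to 183, 152 to 264 and 156 to 218 CPM. The endothelium markers summed to 314 to 358, 232 to 342 and 283 to 345 CPM. Surface ectoderm markers summed to 359 to 409, 303 to 503 and 286 to 379 CPM. Skeletal muscle markers summed to 36.4 to 45.1, 26.5 to 58.9 and 21.5 to 48.1 CPM. From HH13-14 to HH17-18, 14 of 15 neuron markers had a fitted change above 0 (median log2 fold change 0.75). Of these, 6 passed an edgeR adjusted p of 0.05, all higher, as did 6 of 8 macrophage markers (median 3.45) and 2 of 6 erythroid markers (median 1.01), beside 4.51% of all genes. Called lower were 1 of 7 neural crest and 1 of 4 glial markers. Of 7 surface ectoderm markers, 2 were called higher and 1 lower. No endothelium, head mesenchyme, neural tube, trigeminal placode or skeletal muscle marker was called. The highest neuron sum, 2063 CPM, was in HH17-18 replicate 3. The part of these cell types in the levels of CDKN1C, MYC, CDC25A or the other genes was not tested.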

How the data were processed

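Whole-number counts per gene for 18 libraries were used as the authors deposited them. Per the submitters' processing notes, Trim Galore, HISAT2, featureCounts and the GRCg7b build were used. Versions, and whether counting used strand, are not given in the sources used here. Of the 44 genes, 12 overlap another RefSeq gene of GRCg7b (MCM4, MCM6, GINS1, ORC1, POLA1, CCND3, CCNE2, CDK6, CDKN1B, RB1, BUB1 and TTK), so their counts may be less certain. Overlap was taken over whole gene spans, and its effect on the counts was not checked. Coordinates come from RefSeq, which matched 43 of 44 symbols (not AURKA).

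The 2 technical replicates of a pool, run on lanes 7 and 8, were summed. In R 4.3.3, genes were kept with filterByExpr (17724 of 30108), scaled by TMM and tested in 1 edgeR 4.0.16 quasi-likelihood fit of all 9 pools without covariates, two-sided, with Benjamini-Hochberg adjustment over all genes tested and a threshold of 0.05. The SE is the one implied by the test statistic. DESeq2 1.42.0 was an alternative. The procedure was tested on simulated data with changes larger than those fitted for most genes described here. That test does not measure how well small changes are found. All 18 columns matched a sample, and 0 were left unused. The p-values weigh differences between stages against the spread between pools, and the labels do not say whether pools share embryos or a dissection.

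The genes, lists, tests and naming rule were chosen with earlier results of these data known. The rule gave values in every pool for members past the threshold, for the extremes of each role by fold change, and for the CDKN1 inhibitors and D-type cyclins. CDK1, TOP2A and the ratio of CCNE1 to CDKN1C were chosen after their values were seen. A planned search of promoters for motifs was not run, and promoter and protein sequences were not used here. Alternatives were other scalings, tests, filters, thresholds, each lane alone, the replicate number as a block, fits of the 2 stages compared and leaving out each pool.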

Additional observations from a re-analysis of the deposited data

How the results depend on the processing

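Of 154 counts of called members recomputed under alternatives, 150 equalled those reported. Every reported count was 0, and a setting that calls fewer genes can hardly raise it, so this agreement does not measure stability. Without HH13-14 replicate 1, for example, 98 genes in place of 800 were called from HH13-14 to HH17-18. The number of members called higher from HH13-14 to HH17-18 was 1 in place of 0 with the DESeq2 test, with the replicate number as a block and at an adjusted p under 0.1, and the member was CDKN1C each time. The stage effect called 1 with DESeq2. The labels do not tie pools of the same number at different stages, and their deviations correlated at -0.0633 to 0.303 over 9 pairs, which does not establish pairing. With the replicate block, 876 genes in place of 800 were called and CDKN1C stood 0.56 higher on the log2 scale (edgeR adjusted p = 0.0289). When each pool was left out in turn, the median log2 fold change ranged from -0.00632 to 0.123 for the inhibitors and the RB-E2F genes and from -0.0899 to 0.0425 for the mitosis genes. The former was 0.265 as a mean over members. Among single genes, leaving out a pool gave -0.0142 to 0.245 for POLA1, -0.00632 to 0.0546 for CDKN1B, -0.139 to 0.0491 for E2F1 and -0.0489 to 0.057 for TOP2A, and library totals with no further scaling gave 0.00676 for E2F1. With lane 8 alone CDC25A had an edgeR adjusted p of 0.0539. The cause of these differences was not tested. With 3 pools a stage and a biological coefficient of variation of 20.2% over all genes, small changes are not resolved, and CDKN1A, with 12 to 520 counts per library, has the widest interval.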

Other observations

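BTG2, an antiproliferative gene of the wider list, was looked up after the values were seen, because its highest pool, HH17-18 replicate 2, was also the highest for CDKN1C. BTG2 stood at 34.1, 29.8 and 34.6 CPM at HH13-14, at 36.8, 54.3 and 50.03 CPM at HH15-16 and at 38.8, 76.5 and 55.4 CPM at HH17-18. All its later pools lay above the HH13-14 pools. Taken stage by stage, this held for 8.03% of all genes at HH15-16 and 16% at HH17-18. The log2 fold change of BTG2 from HH13-14 to HH17-18 was 0.79 (SE 0.22), which did not pass the threshold (edgeR adjusted p = 0.0704). Of the 118 wider genes, 8 (6.78%) were higher in every HH17-18 pool than in any HH13-14 pool, beside 16% of all genes. Besides BTG2 these were MCM8, CCNI, CDKN2A, CDKN2C, CDKN3, FOXM1 and BTG1. In the other direction there were 23 (19.5%), beside 15.4% of all genes. The match with CDKN1C was the reason for the choice and is not a result.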
